A study of Mus musculus with 35 samples.

Results

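Imprinted genes are genes whose RNA comes mainly from the copy inherited from the mother or mainly from the copy inherited from the father, and 40 of them, chosen by gene symbol from textbook imprinted domains of the mouse, were followed here through GATA6-driven differentiation. Of these, 39 had a row among the 44853 genes of the table of the induction series and 25 a row among the 6275 genes of the table of the siRNA series, while Nespas was not analysed here. RNA-seq had been made from KH2 mouse embryonic stem (ES) cells of mixed C57BL/6 x 129/Sv background that carry a doxycycline (Dox) inducible GATA6 cassette, to follow how the transcription factor GATA6 turns ES cells into primitive endoderm (PrE), the extra-embryonic layer that lines the yolk sac. The induction series held 3 libraries each without Dox (0h) and after 16, 24, 48, 72, 96 and 168 h with Dox at 1 µg/mL, and 2 libraries of XEN cells of the line X10 (CD1 strain), an extra-embryonic endoderm line taken as the reference for PrE and grown without Dox or LIF. In the siRNA series, inducible cells had received the same dose of Dox for 48 h together with a control siRNA (siCTL, 6 libraries) or an siRNA that targets Oct4 (siOct4, 6 libraries), the pluripotency factor encoded by Pou5f1. All ES-derived groups, the 0h cells included, carried the cassette. Cells were grown on mouse embryonic fibroblast feeders, which were removed by letting them adhere before lysis. The siRNA series came from a clone of the inducible line, and which clone gave the induction series was not given in the sources used here.

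As background, imprinted genes lie in clusters, each controlled by a stretch of DNA that is methylated in egg or sperm and keeps that mark in the embryo. In many clusters the unmethylated copy makes a long non-coding RNA, and the protein-coding neighbours are silenced beside it. Many of the proteins act on growth, and imprinted genes have been studied above all in the placenta and the yolk sac. The deposited values sum both parental copies, so nothing here reads which copy was active. In bulk libraries, fewer cells of a type and less RNA per cell cannot be told apart.

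Values are TPM, the share of a gene in the transcripts of its library after correction for transcript length, scaled to the same total in each library, and they hold no trace of how deeply a library was sequenced. ES and PrE markers went with the labels. The summed level of 6 ES markers lay between 3230 and 3380 TPM in 0h libraries and between 3.51 and 4.15 TPM in XEN libraries. That of 9 PrE markers rose from at most 45.7 TPM at 0h to at least 13706 TPM at 168h. Some markers of trophoblast, a cell type of the placenta, also rose by 72h and are given with the siRNA series below. Pou5f1 ran from 782 to 1194 TPM with siCTL and from 282 to 387 TPM with siOct4, a log2 change of -1.52 (limma, SE 0.14, adjusted p = 5.21e-05). Replicates 1 and 2 were the closest pair in 7 of 7 groups of 3 libraries, and replicate 3 at 72h stood farthest from its group, with an SD of the log2 difference over genes of 0.594 and 0.573 to the other two against 0.314 between those. In the siRNA series libraries 3 and 4 of siCTL stood apart in the same way. The study's methods call the replicates of the induction series independent and its supplement calls the siRNA experiments independent, without saying what was kept apart (cultures, days or inductions), so p-values measure the spread between these libraries.

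A difference is given as a log2 change, the difference between group means of log2(TPM + 1), so that low-level genes show a smaller change than their TPM ratio would. A gene was called at an adjusted p-value under 0.05 (limma, Benjamini-Hochberg over all genes tested) with an absolute log2 change above 1, or above 0.5 in the siRNA series. The 6 genes Kcnq1ot1, Kcnq1, Rtl1, Magel2, Rasgrf1 and Nap1l5 stayed under a mean of 1 TPM in every group and were not tested, which left 33 imprinted genes in the induction series. Over the 6 Dox times, 14 of the 33 genes were called higher at 1 or more of them, 12 lower, and 0 in both directions at different times, whereas of all 15057 genes tested 26.3% were called higher at 1 or more of them, 19.4% lower and 0.325% in both directions. The 6 comparisons share their 0h libraries and are not independent of each other.

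At 16h only Igf2 was called higher and 0 genes lower, which is 3.03% of the 33 imprinted genes, whereas of all 15057 genes tested 1.97% were called higher and 0.804% lower. At 24h Igf2, Dlk1 and Sfmbt2 were higher and Nnat lower, 12.1% of the 33 (all genes 3.24% higher and 2.44% lower). The calls came to 4 higher and 8 lower at 48h (all genes 9.14% and 7.26%), 7 and 9 at 72h (all genes 14.7% and 11.5%), 7 and 11 at 96h (all genes 15.4% and 14.1%), and 13 and 9 at 168h (all genes 22.6% and 16.5%). XEN cells against 0h gave 12 higher and 8 lower (all genes 18.9% and 18.7%). At 168h 66.7% of the 33 genes were called, at 72h 48.5%. The median log2 change of the 33 genes was -0.22 at 96h, 0.38 at 168h and 0.43 in XEN cells, beside 0.01, 0.09 and -0.01 for all genes tested. From 24h on these 33 genes were called at a higher rate than all genes tested. The 33 were picked by name with earlier results of the data known, and the gap was given no test. It need not hold for other imprinted genes. Of 27 tested genes of a further list, described below, 2 were called higher and 7 lower at 168h, and 5 and 9 in XEN cells against 0h.

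**Figure D1:**
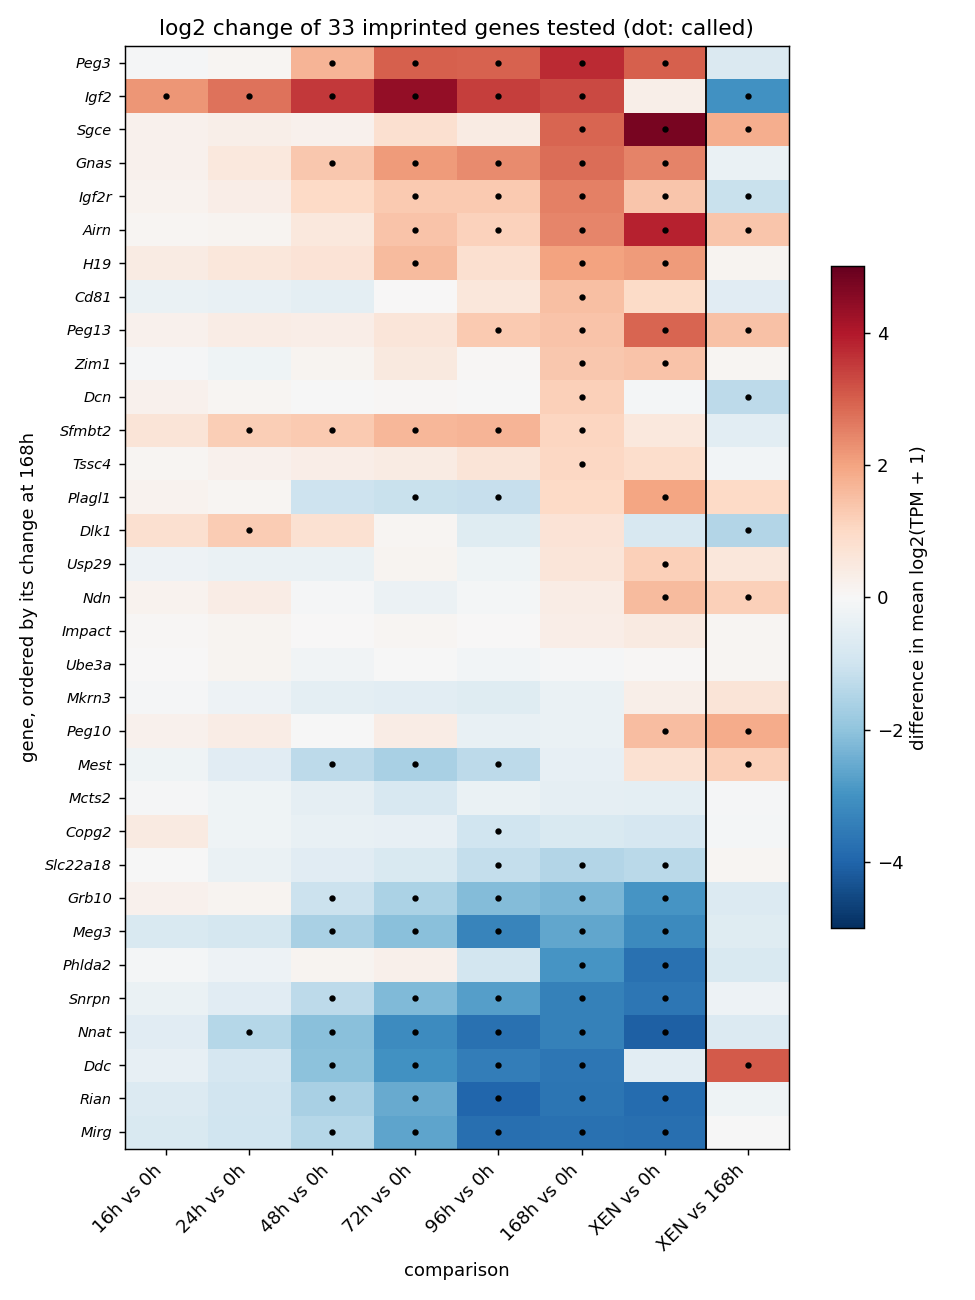
Log2 changes of the 33 imprinted genes tested (rows, ordered by the change at 168h) in 8 comparisons (columns), red for higher and blue for lower in the first-named group, with a dot where the change was called. Calls of Nnat as lower start at 24h, those of Meg3, Rian, Mirg, Snrpn, Ddc, Grb10 and Mest at 48h, and those of Plagl1, Copg2, Slc22a18 and Phlda2 between 72 and 168h, whereas Ddc turns from blue to red in XEN against 168h.

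In the Dlk1-Meg3 domain of chromosome 12 the non-coding RNAs Meg3 (chr12:109541001-109571726), Rian (chr12:109603940-109661716) and Mirg (chr12:109729764-109749460; all GENCODE M21, mm10, plus strand) fell together. They follow each other along the same strand, are made from the maternal copy, and carry microRNAs and small nucleolar RNAs in their transcripts. In the RefSeq tables used here, 14 microRNA genes with 26 mature microRNAs lay inside Mirg on its strand, 3 inside Rian and 2 inside Meg3. The polyA libraries do not measure the microRNAs themselves, and 4 from Mirg are shown to make plain what the fallen host carries, with the seed (bases 2 to 8, which pair with targets) in capitals. The first pair have the same seed, the only seed shared among the 26.
mmu-miR-453: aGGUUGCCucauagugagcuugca
mmu-miR-496a-5p: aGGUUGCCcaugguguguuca
mmu-miR-134-5p: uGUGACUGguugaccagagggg
mmu-miR-410-3p: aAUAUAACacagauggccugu

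Meg3, a long RNA linked to growth restraint, stood at 162, 179.6 and 176 TPM in the 0h libraries (replicates 1 to 3 in this order throughout). It then stood at 88, 109 and 112 TPM at 16h, 76.5, 81.3 and 135 TPM at 24h, 49.1, 52.6 and 67.1 TPM at 48h, 47.9, 44.9 and 28 TPM at 72h, 15.9, 14.1 and 20.3 TPM at 96h and 22.3, 23.1 and 40.5 TPM at 168h. Every Dox library lay below every 0h library, and the lowest values were at 96h. The log2 change against 0h was -0.75 (limma, SE 0.24, adjusted p = 0.0461) at 16h and -0.86 (limma, SE 0.24, adjusted p = 0.0107) at 24h, both under the size asked for a call, then -1.61 (limma, SE 0.24, adjusted p = 1.29e-05) at 48h, -3.30 (limma, SE 0.24, adjusted p = 3.63e-10) at 96h and -2.60 (limma, SE 0.24, adjusted p = 7.95e-09) at 168h. Rian, host of many small nucleolar RNAs, went from 182, 165 and 175 TPM at 0h to 48.6, 47.7 and 76.2 TPM at 48h, 9.56, 11 and 9.86 TPM at 96h and 9.69, 12.6 and 17.2 TPM at 168h. Its log2 change at 168h was -3.66 (limma, SE 0.25, adjusted p = 7.26e-11). Mirg went from 28.4, 27.4 and 29.7 TPM at 0h to 7.79, 8.06 and 15.7 TPM at 48h and 1.42, 0.914 and 1.27 TPM at 168h, a log2 change of -3.75 (limma, SE 0.36, adjusted p = 1.72e-08). At 24 and 48h replicate 3 was the highest of its group for all 3 RNAs, and at 72h it was the lowest.

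The 3 RNAs did not keep their proportions. The ratio of Rian to Meg3 TPM was 1.01 ± 0.104 (SD, n = 3) at 0h and 1.01 ± 0.116 (SD, n = 3) at 48h but 0.468 ± 0.0662 (SD, n = 3) at 168h, with library ranges of 0.919 to 1.12 and 0.425 to 0.544 at the first and last time. The ratio of Mirg to Meg3 went from 0.166 ± 0.0118 (SD, n = 3) at 0h to 0.0449 ± 0.0169 (SD, n = 3) at 168h. Both ratios therefore lay lower at 168h in every library, with Rian and Mirg further below their 0h level than Meg3. In XEN cells Meg3 stood at 16 and 19.9 TPM, Rian at 12.4 and 9.83 TPM and Mirg at 1.03 and 1.27 TPM. Each was called lower than at 0h there, and none of the 3 was called between XEN and 168h cells. The RefSeq starts of Meg3 and Rian, whose RNA levels fell together, are shown for contrast. Each window holds the 250 bases before and 50 after the start (GRCm38.p6), with each CG in capitals, since CG is the pair that DNA methylation marks. Whether transcription began at either start in these cells was not measured.
Meg3 (chr12:109540746-109541045, plus strand): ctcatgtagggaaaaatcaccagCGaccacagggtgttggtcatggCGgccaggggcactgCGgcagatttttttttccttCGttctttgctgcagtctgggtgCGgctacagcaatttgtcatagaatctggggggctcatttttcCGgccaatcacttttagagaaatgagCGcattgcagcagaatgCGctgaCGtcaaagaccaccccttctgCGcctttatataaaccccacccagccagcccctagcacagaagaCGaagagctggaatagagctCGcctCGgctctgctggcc
Rian (chr12:109603695-109603994, plus strand): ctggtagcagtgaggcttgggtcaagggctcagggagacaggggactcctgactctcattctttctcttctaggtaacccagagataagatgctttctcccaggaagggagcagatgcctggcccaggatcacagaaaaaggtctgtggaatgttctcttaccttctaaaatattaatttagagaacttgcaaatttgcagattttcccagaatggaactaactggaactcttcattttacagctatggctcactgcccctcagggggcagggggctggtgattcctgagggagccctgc

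The Meg3 window shown held 13 CG and the Rian window 0, against a median of 7 over all 32851 promoter windows of that length in the RefSeq table. RefSeq lists a second Meg3 start within the gene, whose window (chr12:109545148-109545447) held 1 CG and no TGCCGC. The 46 windows of the 31 imprinted genes found there had a median of 14.5. The Rian window held the GATA motif AGATAA (both strands searched), as did 11.2% of all windows and 2 of the 46. The Meg3 window shown held TGCCGC, the letters bound by ZFP57, a factor that protects imprints, as did 11.6% of all windows and 12 of the 46. A match is a description of the letters only, and the 2 motifs can share at most 1 letter.

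Dlk1, which encodes a membrane protein of the Notch ligand family and is made from the paternal copy of this domain, moved otherwise. It stood at 2.47, 1.76 and 1.49 TPM at 0h, 3.68, 4.61 and 3.76 TPM at 16h and 6.71, 5.49 and 5.58 TPM at 24h, a log2 change of 1.26 (limma, SE 0.38, adjusted p = 0.0175) at 24h and its only call against 0h. It lay back at 0.893, 0.881 and 0.883 TPM at 96h. At 168h the libraries spread over 4.71, 9.08 and 0.74 TPM, so that replicate 3 lay below all 3 libraries at 0h and the others above. The call at 24h was lost in 5 of the alternative fits, with log2 changes between 1.16 and 1.30.

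**Figure D2:**
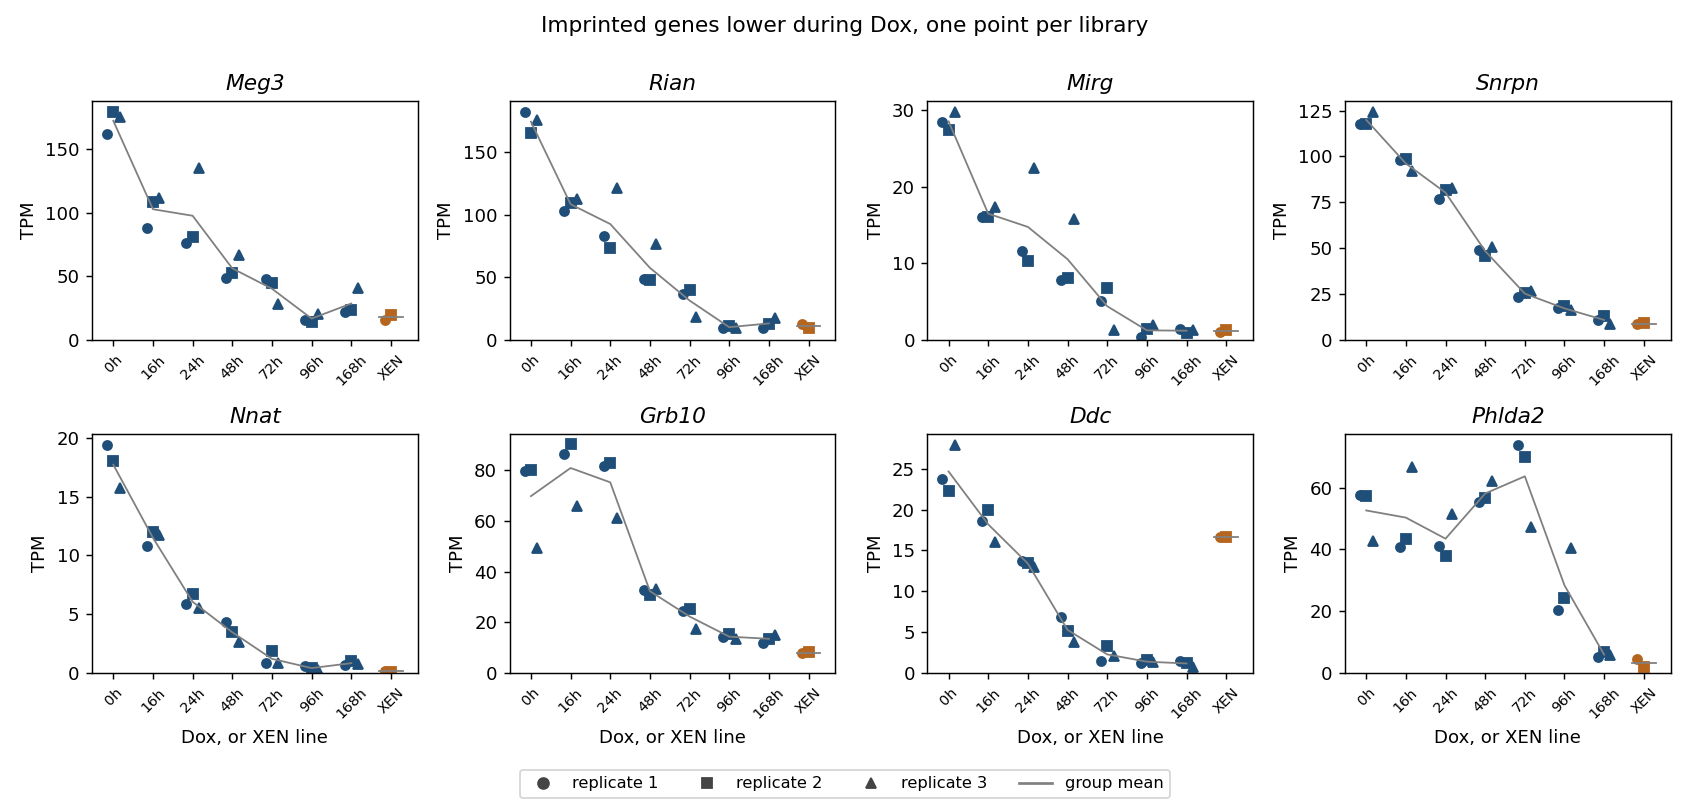
TPM of 8 imprinted genes called lower during Dox, with a symbol for each replicate, the grey line joining the means of the Dox times (set at even steps) and XEN cells in brown. Meg3, Rian and Mirg drop together, Phlda2 lies below its 0h libraries at 96 and 168h, and Ddc stands at 16.7 and 16.7 TPM in XEN libraries after falling to 1.43, 1.23 and 0.75 TPM at 168h.

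Igf2, the fetal growth factor made from the paternal copy (chr7:142650766-142666816, minus strand), was the earliest riser and reached the largest log2 change of the 33 genes at any Dox time. It stood at 6.44, 5.63 and 13.6 TPM at 0h, 33, 35.3 and 56.7 TPM at 16h, 53.2, 57 and 63.5 TPM at 24h and 106, 105 and 100.4 TPM at 48h. It went on to 263, 251 and 95.9 TPM at 72h, 85.9, 90.2 and 118 TPM at 96h and 101, 91.8 and 71.8 TPM at 168h. All Dox libraries lay above all 0h libraries. Against 0h it changed by 2.21 (limma, SE 0.32, adjusted p = 6.16e-05) on the log2 scale at 16h, 4.38 (limma, SE 0.32, adjusted p = 4.66e-10) at 72h and 3.30 (limma, SE 0.32, adjusted p = 1.43e-08) at 168h. The top at 72h was carried by replicates 1 and 2, with replicate 3 near the 48h level. XEN cells stood at 10.3 and 9.56 TPM, inside the 0h range, with a log2 change against 0h of 0.29 (limma, SE 0.35, adjusted p = 0.481). A second gene model, Gm49394, overlaps Igf2 on the same strand, and how the authors' counting shared reads between them is not known here.

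H19, the maternal non-coding RNA that shares enhancers with Igf2 (chr7:142575529-142578143, minus strand), carries the mature microRNAs of the miR-675 hairpin, shown with the seed in capitals as the product by which the RNA is best known.
mmu-miR-675-5p: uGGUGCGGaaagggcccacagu
mmu-miR-675-3p: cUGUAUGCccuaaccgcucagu

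H19 stood at 9.87, 8.36 and 22.6 TPM at 0h, 18.2, 16.7 and 27.1 TPM at 48h, 43, 41.7 and 32.8 TPM at 72h, 18.3, 19.6 and 29.8 TPM at 96h and 49, 48.1 and 62.4 TPM at 168h. It was called at 72h, with a log2 change of 1.58 (limma, SE 0.35, adjusted p = 0.000589), missed the threshold at 96h at 0.78 (limma, SE 0.35, adjusted p = 0.0546), and was called at 168h at 2.01 (limma, SE 0.35, adjusted p = 3.68e-05). Replicate 3 was the highest H19 library at 0, 16, 24, 48, 96 and 168h. At 72h it was the lowest. The summed level of 12 fibroblast markers, of which 4 had a mean under 1 TPM at 0h, ran from 142 to 351 TPM at 0h and from 166 to 364 TPM at 168h. That sum was highest in replicate 3 at 0, 16, 24, 48, 72 and 168h and lowest in it at 96h, so that at 72 and 96h it did not go with H19: replicate 3 had 333 TPM against 84.4 and 93 TPM at 72h, and 154 against 208 and 196 TPM at 96h. The part of the fibroblast markers in the H19 values was not tested. In XEN cells H19 stood at 57.8 and 58.5 TPM, so that the Igf2 to H19 ratio went from 0.642 ± 0.0374 (SD, n = 3) at 0h over 5.27 ± 1.38 (SD, n = 3) at 48h and 1.71 ± 0.491 (SD, n = 3) at 168h to 0.171 ± 0.0107 (SD, n = 2) in XEN cells.

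Igf2r, the receptor that carries Igf2 to the lysosome for breakdown, rose later. It stood at 18.9, 17.4 and 15.9 TPM at 0h, 33.9, 36 and 36.7 TPM at 48h, 55.6, 55.9 and 28.5 TPM at 72h and 103, 108 and 99.7 TPM at 168h. On the log2 scale it changed by 0.99 (limma, SE 0.17, adjusted p = 4.75e-05) at 48h, just under the size asked, 1.31 (limma, SE 0.17, adjusted p = 1.03e-06) at 72h and 2.51 (limma, SE 0.17, adjusted p = 6e-11) at 168h. Airn, the paternal antisense RNA that starts inside Igf2r and silences it on that copy in other tissues, rose over the same days. It stood at 0.254, 0.0609 and 0.152 TPM at 0h, 3.67, 2.01 and 1.16 TPM at 72h, 4.52, 5.37 and 6.23 TPM at 168h and 14.7 and 16.6 TPM in XEN cells. Airn changed by 1.43 (limma, SE 0.22, adjusted p = 1e-05) on that scale at 72h, 2.46 (limma, SE 0.22, adjusted p = 4.48e-09) at 168h and 3.85 (limma, SE 0.24, adjusted p = 3.92e-11) in XEN cells against 0h. Both RNAs of the domain thus rose together up to 168h, with no overlap of 0h and 168h libraries for either. In XEN cells the ratio of Airn to Igf2r TPM was 0.332 ± 0.0295 (SD, n = 2) against 0.0521 ± 0.00943 (SD, n = 3) at 168h. The genes overlap on opposite strands of chromosome 17 (chr17:12682406-12769664 and chr17:12741311-12860136), and the counting used the strand of the reads. The starts of the pair are shown because the sense and antisense RNA rose side by side: the 250 bases before the start of Igf2r and the whole window of Airn (RefSeq, GRCm38.p6), with each CG in capitals. The whole 300-base windows held 34 CG for Igf2r and 3 for Airn.
Igf2r (chr17:12769707-12769956, minus strand): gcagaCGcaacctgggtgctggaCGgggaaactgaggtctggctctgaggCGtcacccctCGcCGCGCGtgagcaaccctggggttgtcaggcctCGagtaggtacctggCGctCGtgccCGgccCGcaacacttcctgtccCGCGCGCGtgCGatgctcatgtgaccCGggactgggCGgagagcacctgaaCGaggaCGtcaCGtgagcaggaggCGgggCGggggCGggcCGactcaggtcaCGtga
Airn (chr17:12741061-12741360, plus strand): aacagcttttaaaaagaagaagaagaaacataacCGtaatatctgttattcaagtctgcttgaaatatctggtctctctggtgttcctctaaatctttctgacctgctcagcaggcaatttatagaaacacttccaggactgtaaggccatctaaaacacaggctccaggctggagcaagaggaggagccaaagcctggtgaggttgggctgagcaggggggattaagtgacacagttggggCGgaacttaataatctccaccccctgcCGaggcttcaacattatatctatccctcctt

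**Figure D3:**
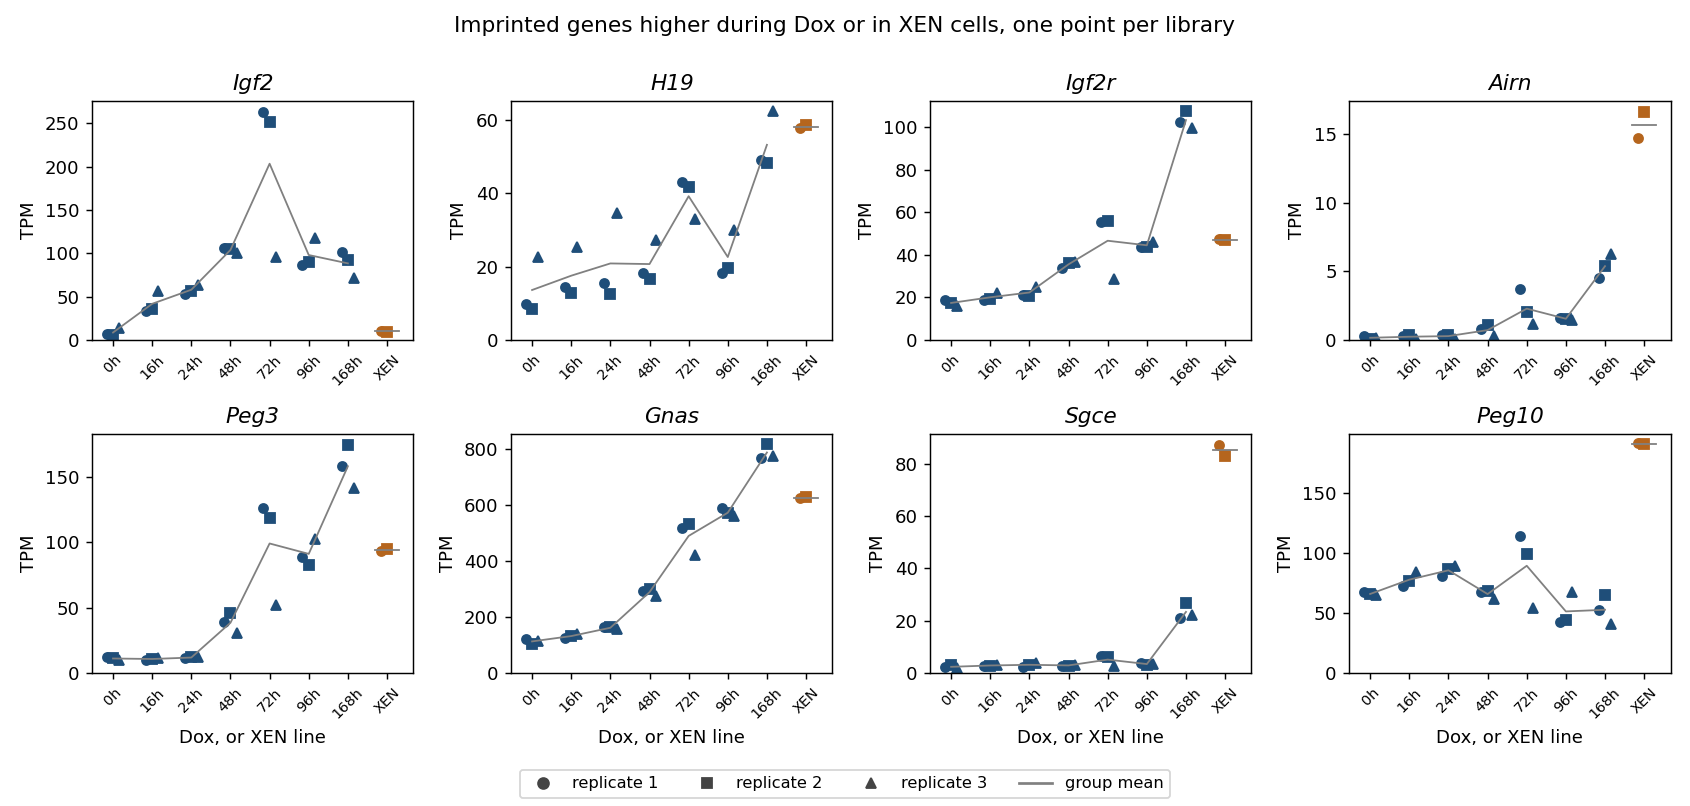
TPM of 8 imprinted genes called higher during Dox or in XEN cells, with a symbol for each replicate, the grey line joining the means of the Dox times (set at even steps) and XEN cells in brown. Igf2 tops at 72h and is back at 10.3 and 9.56 TPM in XEN cells, whereas Sgce, Airn and Peg10 are highest in XEN cells.

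Grb10, an adaptor protein that damps insulin and IGF receptor signalling, went the other way from Igf2. It stood at 79.9, 80.2 and 49.4 TPM at 0h, 81.7, 83 and 61.2 TPM at 24h, 32.7, 30.8 and 33.3 TPM at 48h and 11.8, 13.4 and 15.1 TPM at 168h. No library from 48h on reached the lowest 0h library, and the log2 change was -1.06 (limma, SE 0.18, adjusted p = 4.5e-05) at 48h and -2.27 (limma, SE 0.18, adjusted p = 6.37e-10) at 168h. Its neighbour Ddc on chromosome 11, which encodes aromatic amino acid decarboxylase, stood at 23.8, 22.3 and 27.9 TPM at 0h, 13.7, 13.5 and 13 TPM at 24h, 6.86, 5.17 and 3.74 TPM at 48h and 1.43, 1.23 and 0.75 TPM at 168h. Its log2 change was -0.83 (limma, SE 0.18, adjusted p = 0.00206) at 24h and -3.59 (limma, SE 0.18, adjusted p = 1.42e-12) at 168h. In XEN cells the neighbours parted, with Grb10 at 7.76 and 8.01 TPM and Ddc at 16.7 and 16.7 TPM.

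The wider IGF axis was described with a list of 15 genes, 14 of them tested, which holds the ligand Igf1, the receptors, their substrates, the binding proteins of the ligands and the proteins that bind Igf2 mRNA, and none of the imprinted genes. At 168h 8 were called higher and 1 (Igfbp2) lower (all genes 22.6% and 16.5%), with a median log2 change of 1.65 beside 0.09 for all genes. The ligand Igf1 changed by 3.52 (limma, SE 0.34, adjusted p = 1.44e-08), the binding protein Igfbp4 by 3.33 (limma, SE 0.33, adjusted p = 2.53e-08) and the receptor substrate Irs1 by 3.01 (limma, SE 0.14, adjusted p = 3.67e-13). The binding protein Igfbp2 went from 231 ± 21 TPM (SD, n = 3) to 40.4 ± 4.72 TPM (SD, n = 3), a change of -2.49 (limma, SE 0.20, adjusted p = 9.07e-10) on the log2 scale. In XEN cells against 0h 8 were higher and 2 lower (Igfbp2 and Igfbp3, the latter named after its values were seen), beside 18.9% and 18.7% of all genes. The receptor substrate Irs2 led them at 3.33 (limma, SE 0.18, adjusted p = 4.91e-12).

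In the Kcnq1ot1 domain of chromosome 7 the listed genes at its 2 ends moved in opposite directions by 168h. Further genes of the domain did not all keep to this pattern. From 0h to 168h mean levels went from 3.11 to 0.501 TPM for Ascl2 and from 1.59 to 0 TPM for Tspan32. Osbpl5 went from 2.35 to 5.35 TPM, not called, and Cdkn1c from 14.7 to 12.8 TPM. Phlda2, a maternal pleckstrin-domain gene that limits placental growth, stood at 57.6, 57.4 and 42.8 TPM at 0h and 73.8, 69.8 and 47.4 TPM at 72h, then at 20.4, 24.2 and 40.4 TPM at 96h and 5.16, 6.83 and 5.6 TPM at 168h. Up to 72h its libraries overlapped those at 0h, and at 96h and after they lay below. Against 0h it changed by 0.26 (limma, SE 0.25, adjusted p = 0.381) at 72h, -0.92 (limma, SE 0.25, adjusted p = 0.0032) at 96h and -2.96 (limma, SE 0.25, adjusted p = 2.34e-09) at 168h. Slc22a18, a transporter gene next to it, ranged from 2.36 to 2.94 TPM at 0h and from 0.132 to 0.517 TPM at 168h, a log2 change of -1.45 (limma, SE 0.20, adjusted p = 1.73e-06).

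Cd81, a tetraspanin of the cell surface, and Tssc4, a splicing factor gene, lie side by side at the other end. Cd81 stood at 155, 150.0 and 123 TPM at 0h, 102, 102 and 101 TPM at 48h, 203, 210.2 and 209.7 TPM at 96h and 371, 389.7 and 471 TPM at 168h. It dipped before it rose, with a log2 change of -0.48 (limma, SE 0.09, adjusted p = 0.000249) at 48h, under the size asked, and 1.52 (limma, SE 0.09, adjusted p = 2.22e-11) at 168h. Tssc4 stood at 29, 30.5 and 29.8 TPM at 0h and 57.5, 55.4 and 72.5 TPM at 168h, a log2 change of 1.02 (limma, SE 0.08, adjusted p = 1.46e-09), which fell under 1 when the libraries were rescaled. Kcnq1ot1, the paternal non-coding RNA of the domain, never exceeded 0.294 TPM in a library, and Kcnq1 never 0.243 TPM.

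Peg3, a paternal zinc finger gene, was the largest riser at 168h. It stood at 11.7, 11.4 and 9.66 TPM at 0h, 11.5, 11.8 and 11.7 TPM at 24h, 38.8, 45.6 and 30.6 TPM at 48h, 126, 119 and 52.2 TPM at 72h, 88.6, 82.4 and 102 TPM at 96h and 159, 175 and 142 TPM at 168h. At 24h the log2 change was still 0.09 (limma, SE 0.22, adjusted p = 0.814), and every library from 48h on lay above every 0h library. It reached 1.71 (limma, SE 0.22, adjusted p = 2.33e-06) at 48h and 3.74 (limma, SE 0.22, adjusted p = 1.09e-11) at 168h. Its divergent neighbour Usp29, a ubiquitin protease gene at chr7:6730578-6967219 on the plus strand while Peg3 lies at chr7:6703892-6730431 on the minus strand, stayed at 2.15 TPM or less in ES-derived libraries and was called only in XEN cells, at 1.18 (limma, SE 0.22, adjusted p = 8.51e-05). Zim1, the maternal zinc finger gene of the domain, ranged from 0.660 to 0.720 TPM at 0h and from 1.87 to 4.71 TPM at 168h, a log2 change of 1.34 (limma, SE 0.24, adjusted p = 6.14e-05).

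Of the other regulators, Sfmbt2, a paternal Polycomb-type gene with a known role in extra-embryonic tissue, rose early and then eased. It stood at 37.2, 36.4 and 25.4 TPM at 0h, 78.3, 76.1 and 76.5 TPM at 24h, 111, 102 and 107 TPM at 96h, 69.9, 65.1 and 73.3 TPM at 168h and 47.7 and 46.7 TPM in XEN cells. Sfmbt2 changed by 1.22 (limma, SE 0.11, adjusted p = 1.23e-07) at 24h, 1.68 (limma, SE 0.11, adjusted p = 1.03e-10) at 96h and 1.07 (limma, SE 0.11, adjusted p = 5.17e-08) at 168h, the last falling under 1 when the libraries were rescaled. Plagl1, a zinc finger factor that restrains growth, stood at 2.98, 1.25 and 14.3 TPM at 0h, where replicate 3 was far above the others, and at 1.25, 1.8 and 0.994 TPM at 96h, 8.95, 8.4 and 10.2 TPM at 168h and 18 and 20.9 TPM in XEN cells. Its calls as lower at 72 and 96h were lost without replicate 3 at 0h and in 6 other alternatives each, with log2 changes down to -0.21 and -0.25. In XEN cells against 0h its log2 change was 1.98 (limma, SE 0.49, adjusted p = 0.00131), a call lost when only the 2 groups were fitted and when replicates 1 and 2 were averaged, with log2 changes of 1.98 and 1.57.

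Peg10 and Sgce start head to head on chromosome 6 and are both made from the paternal copy, yet their levels parted. Sgce, the epsilon-sarcoglycan gene, stood at 2.06, 2.8 and 1.95 TPM at 0h, 3.63, 3.07 and 3.29 TPM at 96h, 21, 26.8 and 22.1 TPM at 168h and 87.3 and 83.2 TPM in XEN cells. Against 0h Sgce changed by 0.41 (limma, SE 0.20, adjusted p = 0.0834) at 96h, 2.90 (limma, SE 0.20, adjusted p = 1.63e-10) at 168h and 4.73 (limma, SE 0.23, adjusted p = 7.53e-13) in XEN cells. Peg10, a retrotransposon-derived gene needed for the placenta, stood at 67.1, 65.6 and 64.6 TPM at 0h, 52.4, 64.9 and 40.5 TPM at 168h and 192 and 191 TPM in XEN cells. It was called at no Dox time, with a log2 change at 168h of -0.34 (limma, SE 0.21, adjusted p = 0.146), and was higher in XEN cells than at 0h by 1.53 (limma, SE 0.23, adjusted p = 9.34e-06). The ratio of Sgce to Peg10 TPM was 0.0345 ± 0.00709 (SD, n = 3) at 0h, 0.0682 ± 0.0187 (SD, n = 3) at 96h, 0.454 ± 0.0808 (SD, n = 3) at 168h and 0.446 ± 0.013 (SD, n = 2) in XEN cells. It thus shifted between 96 and 168h, and its means at 168h and in XEN cells differed by less than the SD at 168h, although both genes were higher in XEN cells.

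Mest, a paternal gene of the hydrolase fold, dipped and came back. It stood at 3.14, 3.43 and 3.25 TPM at 0h, 0.335, 0.345 and 0.446 TPM at 72h, 2.22, 1.87 and 2.6 TPM at 168h and 5.84 and 6.77 TPM in XEN cells. Mest changed by -1.64 (limma, SE 0.15, adjusted p = 1.82e-08) at 72h and -0.41 (limma, SE 0.15, adjusted p = 0.0214) at 168h. Copg2, a coat protein gene that overlaps it tail to tail on the other strand, stood at 25, 23.6 and 21.9 TPM at 0h and 10.6, 11.1 and 11.7 TPM at 96h. Its log2 change at 96h was -1.01 (limma, SE 0.22, adjusted p = 0.000378), the only call, and lay between -0.98 and -0.97, under the size asked, in 3 alternatives.

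Snrpn, the paternal gene for a small nuclear ribonucleoprotein subunit, fell without a pause. It stood at 118, 118 and 124 TPM at 0h, 98.2, 98.3 and 91.9 TPM at 16h, 76.8, 81.5 and 82.6 TPM at 24h, 49, 45.7 and 50.6 TPM at 48h, 23.3, 25.5 and 26.9 TPM at 72h, 17.1, 18.2 and 16.1 TPM at 96h and 10.8, 12.9 and 8.92 TPM at 168h. Each time point lay below the one before without overlap of libraries. Its log2 change came to -0.32 (limma, SE 0.09, adjusted p = 0.0272) at 16h, -1.29 (limma, SE 0.09, adjusted p = 8.7e-10) at 48h and -3.36 (limma, SE 0.09, adjusted p = 1.86e-16) at 168h. Snrpn shares exons with Snurf on its strand, so reads of the pair cannot be told apart by the gene name. Its maternal neighbour Ube3a, a ubiquitin ligase gene, was not called, with a log2 change at 168h of -0.06 and a 95% interval of -0.29 to 0.17. Ndn, a paternal gene of the MAGE family, ranged from 2.34 to 3.25 TPM at 0h and from 3.45 to 4.76 TPM at 168h and stood at 9.98 and 10.5 TPM in XEN cells, and was called only there, at 1.56 (limma, SE 0.18, adjusted p = 1.81e-07) against 0h.

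Nnat, a small membrane protein gene known from the nervous system, was the first to be called lower. It stood at 19.4, 18.1 and 15.8 TPM at 0h, 10.8, 12 and 11.7 TPM at 16h, 5.85, 6.75 and 5.55 TPM at 24h, 4.33, 3.44 and 2.59 TPM at 48h, 0.672, 1.04 and 0.74 TPM at 168h and 0.142 and 0.091 TPM in XEN cells. Nnat changed by -1.41 (limma, SE 0.17, adjusted p = 3.6e-06) at 24h and -3.37 (limma, SE 0.17, adjusted p = 1.02e-12) at 168h. Gnas, which encodes the stimulatory G protein alpha subunit among other products and is biased only in some tissues, reached the highest level of the 39 genes. It stood at 119.7, 103 and 113 TPM at 0h, 291, 299 and 273 TPM at 48h, 587, 569 and 558 TPM at 96h, 768, 817 and 774 TPM at 168h and 624 and 626 TPM in XEN cells. Gnas changed by 0.52 (limma, SE 0.08, adjusted p = 3.38e-05) at 24h, under the size asked, 1.36 (limma, SE 0.08, adjusted p = 2.95e-11) at 48h and 2.80 (limma, SE 0.08, adjusted p = 1.59e-16) at 168h. The gene holds several promoters with different imprints, which a value per gene sums.

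Peg13, a non-coding RNA inside an intron of Trappc9 and on the same strand, ranged from 0.477 to 0.629 TPM at 0h and from 2.46 to 3.95 TPM at 168h. It stood at 10.6 and 10.8 TPM in XEN cells, and its log2 change was 1.44 (limma, SE 0.19, adjusted p = 1.04e-06) at 168h and 2.89 (limma, SE 0.21, adjusted p = 2.97e-10) in XEN cells. Dcn, the secreted proteoglycan decorin and itself a gene of fibroblasts, stood at 0.865, 1.28 and 7.64 TPM at 168h, where the call rested on replicate 3. Its log2 change was 1.21 (limma, SE 0.48, adjusted p = 0.0281), and the call was lost in 8 alternatives with log2 changes from 0.52 to 1.40, among them the fit without that library. In the same library the summed fibroblast markers stood at 364 TPM against 169 and 166 TPM, and their part in the Dcn value was not tested.

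Besides Ube3a, the genes Impact, Mcts2 and Mkrn3 were called in none of the 8 comparisons. Their log2 changes at 168h had 95% intervals of 0.06 to 0.57 for Impact, -0.75 to -0.16 for Mcts2, a retrogene within H13, and -0.84 to 0.20 for Mkrn3. These intervals all lie between -1 and 1. Genes were also grouped by a label for the copy taken as active. The 14 tested genes labelled maternal gave 6 calls of higher and 6 of lower at 168h. The 17 labelled paternal gave 6 and 2. The 2 genes labelled as dependent on the tissue gave 1 and 1. These labels are coarse, since the active copy of other genes can also differ between tissues, and it was not measured here. Of all genes tested 22.6% were called higher and 16.5% lower. The median log2 change was -0.41 for the maternal and 0.62 for the paternal genes, beside 0.09 for all genes. Neighbours in a domain can move together, as Meg3, Rian and Mirg did, though others such as Sgce and Peg10 parted, so these counts are not counts of independent genes.

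A list of 14 genes, 13 of them tested, held enzymes and factors linked to imprints and DNA methylation. Some place or protect the mark, whereas the Tet genes of the list act in removing it, so its counts and median mix both. At 16h 2 were called higher and 0 lower (all genes 1.97% and 0.804%). These were the methyltransferase genes Dnmt3a and Dnmt3b, both named after their values were seen, which went from 32.4 ± 7.93 TPM (SD, n = 3) to 234 ± 9.88 TPM (SD, n = 3) and from 115 ± 3.23 TPM (SD, n = 3) to 365 ± 16.7 TPM (SD, n = 3), log2 changes of 2.84 (limma, SE 0.16, adjusted p = 1.28e-10) and 1.66 (limma, SE 0.20, adjusted p = 1.05e-05). At 24h both were still called higher and 1 gene, Zfp57, lower (all genes 3.24% and 2.44%). By 168h they stood below 0h, at 15.4 ± 2.41 TPM (SD, n = 3) and 47.4 ± 3.22 TPM (SD, n = 3). At that time 1 gene of the list was called higher (Tet3, named after its values were seen) and 8 lower (all genes 22.6% and 16.5%), with a median log2 change of -1.26 beside 0.09 for all genes. Zfp57, which binds the methylated copy, stood at 356 ± 24.3 TPM (SD, n = 3) at 0h and 44.4 ± 3.12 TPM (SD, n = 3) at 168h, a log2 change of -2.98 (limma, SE 0.11, adjusted p = 8.68e-15). Its partner Trim28 changed by -2.13 (limma, SE 0.10, adjusted p = 4.86e-13) and Dppa3, which protects imprints in the early embryo, by -5.13 (limma, SE 0.24, adjusted p = 4.31e-13). The dioxygenases Tet1 and Tet2, which act in removing methylation, changed by -3.54 (limma, SE 0.17, adjusted p = 3.45e-13) and -2.46 (limma, SE 0.12, adjusted p = 8.3e-13). Dnmt1, Zfp445 and Ctcf, named after their values were seen, were not called at 168h. From 0h to 168h mean levels went from 102 to 101 TPM for Dnmt1, from 60.6 to 75.8 TPM for Zfp445 and from 82.1 to 54.2 TPM for Ctcf. Dnmt3l, the cofactor that sets imprints in germ cells, was not called at 168h either, with 427 ± 54.2 TPM (SD, n = 3). In XEN cells Dnmt3l stood at 1.15 ± 0.287 TPM (SD, n = 2). DNA methylation was not measured in these libraries.

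Of a list of 36 further imprinted genes 27 were tested. At 168h 2 were higher and 7 lower (all genes 22.6% and 16.5%), with a median log2 change of -0.21 beside 0.09 for all genes. In XEN cells against 0h 5 were higher and 9 lower (all genes 18.9% and 18.7%), with a median of -0.59 beside -0.01. Of these, Cobl, an actin nucleator next to Grb10 and Ddc, fell with them at -5.01 (limma, SE 0.20, adjusted p = 4.98e-14). The amino acid transporter gene Slc38a4 changed by -2.85 (limma, SE 0.14, adjusted p = 6.13e-13) and Phactr2, a phosphatase and actin regulator gene, by 2.41 (limma, SE 0.18, adjusted p = 4.61e-10). The second gene called higher was H13, named after its values were seen, the host of Mcts2, at 2.15 (limma, SE 0.10, adjusted p = 1.56e-13), while Mcts2 on the same strand was at -0.45. The 5 called higher in XEN cells were Phactr2, H13, Pon2, Smoc1 and Inpp5f, the last 4 also named after their values were seen.

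XEN cells were compared with 168h cells to ask how far the induced cells resemble the embryo-derived line. Of the 33 genes 7 were higher and 4 lower in XEN cells (33.3% called, all genes 4.73% higher and 9.17% lower, or 712 and 1380 genes, which became 930 and 1076 when the libraries were rescaled), and the median log2 change was -0.05 beside -0.14 for all genes. Line, strain and derivation differ along with the group and cannot be told apart. The largest differences were Ddc, with a log2 change of 3.06 (limma, SE 0.21, adjusted p = 6.93e-10), and Igf2, with -3.02 (limma, SE 0.35, adjusted p = 1.2e-06). Peg10 was higher by 1.87 (limma, SE 0.23, adjusted p = 2.71e-06), Sgce by 1.83 (limma, SE 0.23, adjusted p = 2.63e-06), Peg13 by 1.46 (limma, SE 0.21, adjusted p = 1.36e-05) and Airn by 1.39 (limma, SE 0.24, adjusted p = 0.000108). Ndn was higher by 1.19 (limma, SE 0.18, adjusted p = 2.03e-05) and Mest by 1.18 (limma, SE 0.17, adjusted p = 1.48e-05).

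Igf2r differed in XEN cells by -1.11 (limma, SE 0.19, adjusted p = 6.45e-05), which came to -0.95 and was not called when the libraries were rescaled. Dlk1 differed by -1.47 (limma, SE 0.43, adjusted p = 0.00745) and Dcn by -1.31 (limma, SE 0.53, adjusted p = 0.0488), calls that were lost in 4 and in 11 alternatives. For genes not called the interval sets what can be said: the log2 difference lay within -0.77 to 0.37 for Rian, -0.47 to -0.04 for Snrpn, -0.51 to -0.15 for Gnas and -0.68 to 0.96 for H19.

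**Figure D4:**
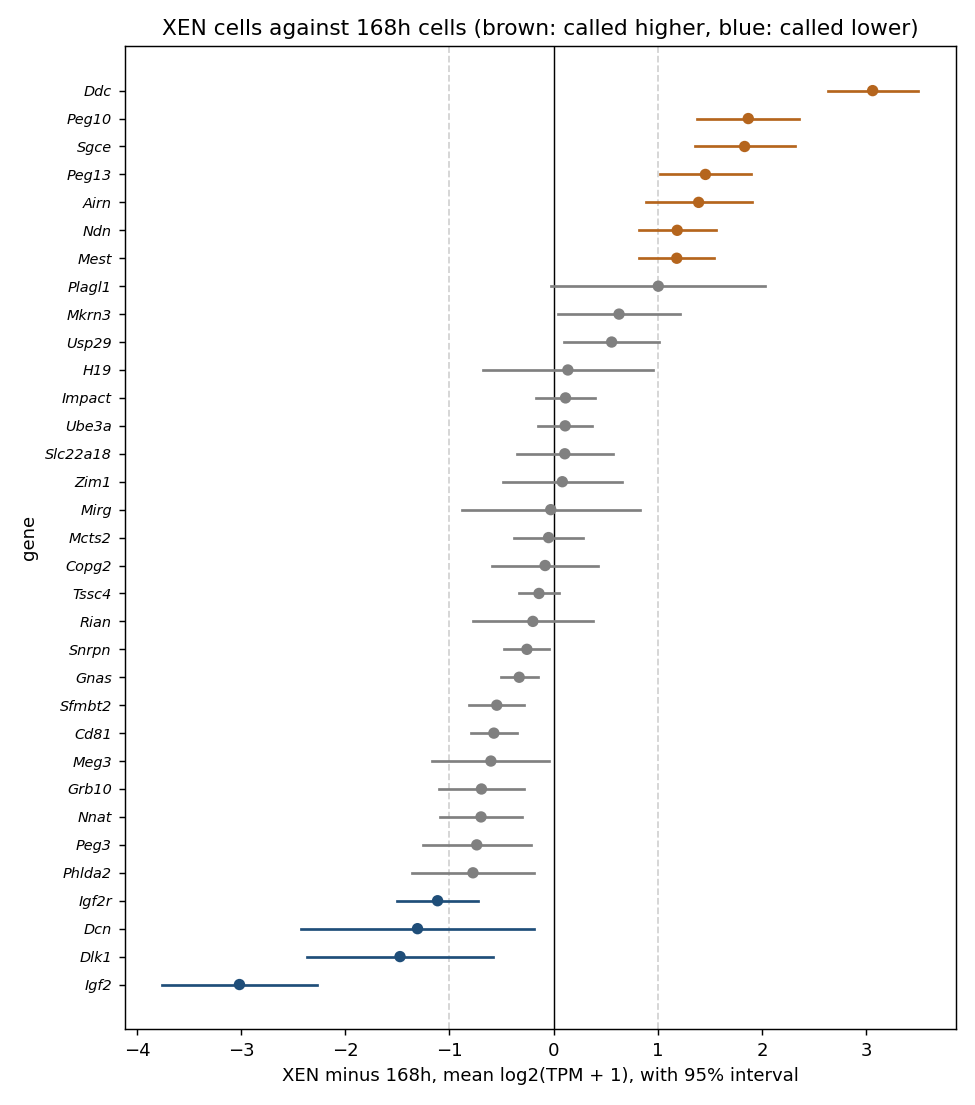
Difference in mean log2(TPM + 1) between XEN and 168h cells for the 33 imprinted genes tested, with its 95% interval; positive values are higher in XEN cells and dashed lines mark a log2 change of 1. Ddc at 3.06 and Igf2 at -3.02 lie at the ends, and the 22 genes in grey were not called.

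The siRNA series asked what Oct4 adds at 48 h of Dox. All 25 imprinted genes of that table were tested, and since it lists only genes that respond to GATA6, it says nothing of the rest. With siOct4 2 were called higher and 0 lower (all 6264 genes tested 0.942% higher and 1.72% lower, or 59 and 108 genes, which became 144 and 153 when the libraries were rescaled), and the median log2 change was 0.03 beside -0.12 for all genes. Phlda2 had a lowest, median and highest value of 17.1, 41.2 and 48.8 TPM with siCTL and 64.2, 154 and 181 TPM with siOct4. No libraries of the groups overlapped, and the log2 change was 1.87 (limma, SE 0.30, adjusted p = 0.00303). Sgce had 1.77, 4.66 and 7.47 TPM with siCTL and 9.04, 11.6 and 13.5 TPM with siOct4, again without overlap, a log2 change of 1.18 (limma, SE 0.25, adjusted p = 0.0188). The call of Sgce was lost without pair 1, 4, 5 or 6, at an adjusted p-value under 0.01 and with consecutive libraries averaged, at log2 changes of 1.13 to 1.22.

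Libraries with the same number deviated together, so a fit that takes the shared number as a block is set beside. The study used a paired test over 6 knock-downs for endogenous Gata6, without saying whether these numbers mark its pairs. Within a group, consecutive libraries (1 and 2, 3 and 4, 5 and 6) also lay close. Their SD of the log2 difference over genes was 0.273 to 0.737, the highest in siCTL 3 and 4, against 0.496 to 0.783 for other pairs. If consecutive libraries are not independent, the block gives p-values that are too small, and with them averaged 0 imprinted genes were called. In the blocked fit Phlda2 had a limma adjusted p of 3.46e-05 and Sgce of 0.00317, and 3 further genes were called higher, namely Igf2, Slc22a18 and H19. Igf2 had a lowest, median and highest value of 42.2, 79.6 and 104 TPM with siCTL and 95.3, 157 and 369 TPM with siOct4, with every pair higher under siOct4. Its log2 change was 1.26 (limma, SE 0.33, adjusted p = 0.0626) without the block and the adjusted p-value 0.000901 with it (limma). Slc22a18 changed by 0.75 (limma, SE 0.20, adjusted p = 0.0652), and the blocked limma fit gave it an adjusted p of 0.0245. H19 changed by 0.70 (limma, SE 0.32, adjusted p = 0.343), and the blocked limma fit gave it an adjusted p of 0.0302. H19 was higher in 6 of 6 pairs and Slc22a18 in 5 of 6. The sum of the 6 fibroblast markers that the siRNA series lists was 564 and 514 TPM in siOct4 libraries 5 and 6. Those libraries held the highest Igf2 and H19 values, and siCTL libraries 5 and 6 had sums of 82.6 and 115 TPM. The sum was also higher with siOct4 in pair 3, but higher with siCTL in pairs 1, 2 and 4. The part of the fibroblast markers in these changes was not tested.

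Phlda2 and Slc22a18 lie beside each other. Apart from these, 2 genes of the list of further imprinted genes were called higher. Both belong to the same Kcnq1ot1 domain, Cdkn1c on the side of Phlda2 and Ascl2 on the side of Cd81. Cdkn1c, a maternal inhibitor of cyclin-dependent kinases, stood at 12.2 ± 3.38 TPM (SD, n = 6) with siCTL and 77.5 ± 49.8 TPM (SD, n = 6) with siOct4, a log2 change of 2.40 (limma, SE 0.34, adjusted p = 0.00169). Ascl2, a maternal transcription factor gene of the placenta, stood at 3.39 ± 1.37 TPM (SD, n = 6) and 9.37 ± 4.27 TPM (SD, n = 6), a log2 change of 1.20 (limma, SE 0.28, adjusted p = 0.0343). These were the only calls among the 12 tested genes of that list (all genes 0.942% higher and 1.72% lower). The call of Ascl2 was lost in 8 alternatives, at log2 changes of 1.09 to 1.30: without pair 1, 2, 4, 5 or 6, without pairs 3 and 4, at an adjusted p-value under 0.01 and with consecutive libraries averaged. That of Cdkn1c was lost with consecutive libraries averaged (limma adjusted p = 0.099). Cd81 and Tssc4, at the other end of the domain from Phlda2 and Slc22a18, changed by 0.43 (limma, SE 0.18, adjusted p = 0.285) and 0.03 (limma, SE 0.20, adjusted p = 0.969). The start of Phlda2 (RefSeq, GRCm38.p6) is shown as that of the gene with the strongest response to siOct4 among the 25, over the 250 bases before it and with each CG in capitals.
Phlda2 (chr7:143502525-143502774, minus strand): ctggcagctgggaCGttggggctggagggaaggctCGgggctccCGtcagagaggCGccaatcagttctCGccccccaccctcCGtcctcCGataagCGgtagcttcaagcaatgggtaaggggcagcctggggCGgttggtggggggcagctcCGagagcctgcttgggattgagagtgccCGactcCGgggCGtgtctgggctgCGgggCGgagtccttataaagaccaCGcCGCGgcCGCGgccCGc

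Phlda2, Cdkn1c and Ascl2 are also genes of the trophoblast, and of the 6 trophoblast markers (of 8) that the siRNA series lists, 1 was called with siOct4, the keratin gene Krt18, which changed by 2.20 (limma, SE 0.24, adjusted p = 0.000297). The other 5, Cdx2, Tfap2c, Hand1, Krt7 and Eomes, did not pass the test, at 0.65, 1.11, 1.54, 1.62 and -0.54 on the log2 scale. The summed level of the 6 ran from 88.5 to 109 TPM with siCTL and from 243 to 662 TPM with siOct4, and that of the 5 without Krt18 from 13.6 to 45.02 TPM and from 21.9 to 130.5 TPM, with overlap. Krt18 also stood at 236 and 219 TPM in XEN libraries, where the other 7 of the 8 markers had a mean under 1 TPM. The part of the trophoblast markers in the change of the imprinted genes was not tested.

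The Dlk1-Meg3 RNAs, which fell over the induction, gave wide intervals here. The log2 change with siOct4 had a 95% interval of -1.29 to 0.78 for Meg3, -1.11 to 0.72 for Rian and -0.69 to 0.83 for Mirg. Meg3 had a lowest, median and highest value of 9.24, 33.3 and 60.2 TPM with siCTL and 7.74, 38.9 and 45.2 TPM with siOct4. The intervals were narrower for Gnas at -0.37 to 0.35 and Tssc4 at -0.41 to 0.46. When libraries 3 and 4 of both groups were left out, a choice made after seeing the data, 4 imprinted genes were called higher (Phlda2, Sgce, Igf2 and Slc22a18). With consecutive libraries averaged, 0 were called by limma, 4 having an unadjusted p under 0.05, and the lowest adjusted p-value was 0.11.

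**Figure D5:**
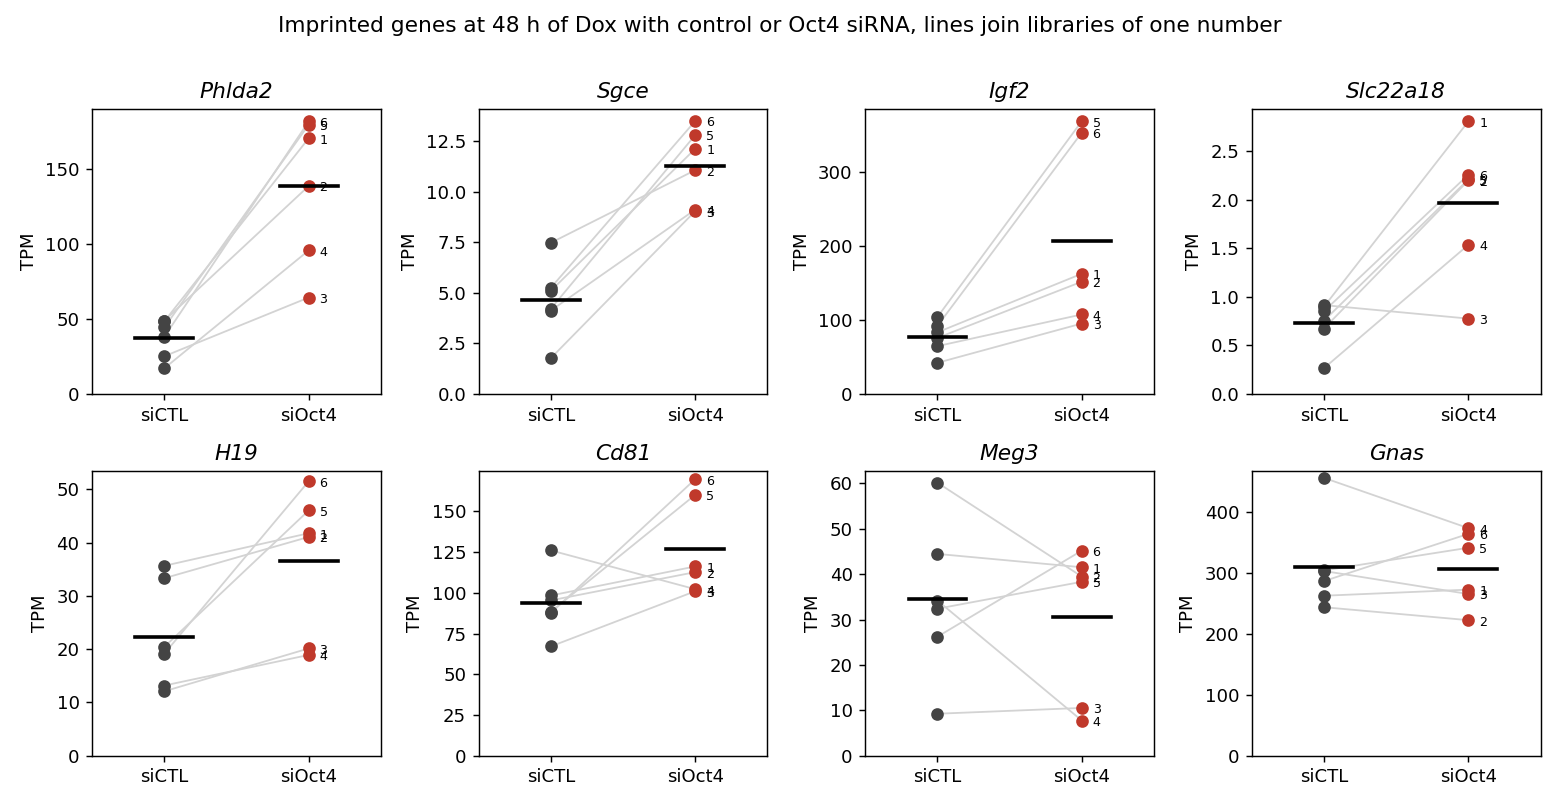
TPM of 8 imprinted genes at 48 h of Dox with siCTL (black) or siOct4 (red), with a point for each library, grey lines joining libraries of the same number, the number beside each siOct4 point and a bar at each group mean. Phlda2 and Sgce do not overlap between the groups, Igf2 is higher with siOct4 in each pair, and Meg3 and Gnas show no common direction.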

How the data were processed

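PolyA RNA was profiled in 35 libraries, 23 of the induction series and 12 of the siRNA series, grouped by their titles. The authors made stranded libraries, trimmed reads with cutadapt, mapped them with STAR (mm10), ran RSEM with the strand of the reads for values per gene, removed libraries that a principal component analysis showed as outliers, and deposited TPM; tool versions and the annotation are not given in the sources used here. The induction columns sum to between 999764 and 999881 TPM. The siRNA table holds only genes the authors called responsive to GATA6, with columns that sum to between 274527 and 355895 TPM; its pooled means and text classes from the authors' own tests were not used. Sequencing depth is unknown, so replicate spread is the only error.

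Symbols with more than 1 row (60) were reduced to the row of highest mean. A gene was tested if any group mean reached 1 TPM, as log2(TPM + 1) with limma 3.58.1 in R 4.3.3 (lmFit, eBayes with trend and robust options), all groups of a table in the same fit, with p-values adjusted by Benjamini-Hochberg over all genes tested. The tests were checked on simulated data. Intervals are 95%. Tables were made with Python 3.11.15, numpy 2.4.6, pandas 2.3.3 and scipy 1.17.1. Gene spans came from GENCODE M21 by symbol; promoters and microRNAs came from RefSeq (GRCm38.p6), where 9 of the 40 genes had no promoter entry.

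Imprinted genes, lists and comparisons were chosen with earlier results of these data known. Values per library are given for imprinted genes called in at least 1 comparison with a group mean that reached 5 TPM, and up to 5 genes a list are named by size of change. Numbers were taken to pair libraries where deviations from the group means correlated over 0.1 in every pair: this held between siCTL and siOct4 (0.236 to 0.707) and between 0h and 72h (0.135 to 0.209), and in none of the other comparisons. Alternatives were the replicate block, median-of-ratios rescaling, other filters, pseudocounts and thresholds, fits of only the groups compared, and each replicate left out in turn.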

Additional observations from a re-analysis of the deposited data

Results flagged for a closer look

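Each set of 6 libraries of the siRNA series was screened for a lowest or highest library that stood far from the others, by Dixon's ratio of the gap to the nearest library over the whole range (95% critical value) on the log2(TPM + 1) scale. Of 50 sets, 7 were picked out, and chance picks out about 1 in 20, or 2.5 of 50. All 7 were siCTL libraries with the number 3 or 4. Library 3 was low for Igf2r (3.40, the other 5 between 5.04 and 5.66), Rian (4.01, the others between 6.04 and 6.49) and Sfmbt2 (5.05, the others between 6.73 and 7.41). Library 4 was low for Slc22a18 (0.34, the others between 0.74 and 0.94) and high for Dlk1 (2.999, the others between 1.61 and 2.10), Gnas (8.83, the others between 7.93 and 8.25) and Peg13 (2.24, the others between 0.97 and 1.41). The genes called with siOct4, Phlda2 and Sgce, were not among them. Groups of 2 or 3 libraries were not screened.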

How the results depend on the processing

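Of 106 called log2 changes of imprinted genes, 0 changed direction over 1655 alternative values, 1588 kept the call and 67 lost it, spread over 17 gene and comparison pairs, for which the cause was not tested. Beside those named above, calls were lost for Grb10 at 48h (-0.94 to -0.93 without replicate 1 or 2 at 0h or with replicates 1 and 2 averaged, a choice made after seeing the data), Slc22a18 at 96h (-0.97 without its replicate 2), Usp29 in XEN cells (0.90 without replicate 1), Mirg at 48h (-1.29 with replicates 1 and 2 averaged), Tssc4 at 168h (0.84 to 0.90, also without its replicate 3) and Sfmbt2 at 168h (0.86 to 0.90, also without replicate 3 at 0h). Single libraries whose removal ended a call were further replicates 2 and 3 at 0h and 1 at 24h for Dlk1 at 24h, 2 at 168h and 1 of XEN for Dlk1 in XEN cells against 168h, 1 and 2 at 0h and 3 at 168h for Dcn at 168h, 3 at 168h and either of XEN for Dcn in XEN cells against 168h, 1 and 3 at 72h or 96h for Plagl1 at that time, and 1 at 0h or 96h for Copg2. Without a fold minimum the calls came to 6 at 16h, 12 at 24h and 20 in XEN cells against 168h, or 18.2%, 36.4% and 60.6% of the 33, where 12.9%, 28.5% and 50% of all genes were called by that rule. At 24h 7 were called without replicate 3 at 24h, and 7 without replicate 3 of every group, a choice made after seeing the data. With each replicate left out in turn the calls ranged from 1 to 1 at 16h, 3 to 7 at 24h, 12 to 13 at 48h, 15 to 17 at 72h, 16 to 19 at 96h, 21 to 22 at 168h, 19 to 21 in XEN cells against 0h and 10 to 11 against 168h.

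For siOct4 the 2 calls became 5 with median-of-ratios rescaling (Cd81 with Phlda2, Sgce, Igf2 and Slc22a18), 1 at an adjusted p-value under 0.01, 1 to 4 with a pair of libraries left out (4 without replicate 3, 1 without replicate 1, 4, 5 or 6), 4 without pairs 3 and 4, and 0 with consecutive libraries averaged, the last 2 chosen after seeing the data. With the replicate block, which the pairing of these libraries allows if consecutive libraries are independent, 5 were called, and over all genes 152 were higher and 385 lower in place of 59 and 108. In the 8 induction comparisons the block changed 1 call, that of Dcn in XEN cells against 168h, which left 10; the pairing of 72h with 0h gave the same 16. Rescaling moved the median log2 change of all genes from -0.12 to 0.01 for siOct4, from -0.14 to -0.02 in XEN cells against 168h and from 0.09 to -0.05 at 168h. TPM cannot show how many reads lie behind the low values.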
